A study of Mus musculus with 12 samples.

Results

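Chemokines and their receptors were followed through whole-kidney RNA of wild type and Alport mice. Members were taken from the array's annotation by the form of their symbols: Ccl, Cxcl, Cx3cl1 and Xcl1 for ligands, and Ccr, Cxcr, Cx3cr1 and Xcr1 for receptors. This gave 55 genes of the 19505 named on the array, namely 38 ligands and 17 receptors. Each gene was read from 1 probe set, that with the highest mean. Ccl21b and Ccl21c are near-identical genes whose values were the same in all 12 samples, so they stand for 1 measurement under 2 names.

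The study compared 4 groups of 3 samples from mice aged 16 weeks. Wild type mice and Alport mice had vehicle, and 2 further groups of Alport mice had losartan or metformin in the drinking water. The genotype of every Alport group is labelled COL4A5 nonsense (G5X) hemi, where the affected gene encodes a collagen of the filtration barrier, and wild type is labelled WT. Losartan, which blocks the angiotensin II receptor, was given at 125 µg/mL from week 6 to 11 and at 250 µg/mL from week 12. Metformin, a biguanide that lowers blood glucose, was given at 2.5 mg/mL and then 5 mg/mL over the same weeks. The labels let the later dose run to week 20, past the stated age. They also say that losartan was co-administered, and each group is called here after the drug of its title. Strain, sex and whether each sample is a separate mouse are not stated, so p-values reflect only how far these samples scatter, and that scatter may be technical.

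Chemokines are small secreted proteins that guide leukocytes along gradients, and their receptors are G protein-coupled receptors of the migrating cells. The CC ligands act mainly on monocytes, T cells and dendritic cells. Among the CXC ligands, Cxcl1, Cxcl2 and Cxcl5 attract neutrophils through Cxcr2, and Cxcl9 and Cxcl10 attract activated T cells through Cxcr3. In injured kidneys, tubular cells, endothelium and infiltrating leukocytes are known sources of these ligands.

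The values are log2 signals. The medians of the samples over all 22206 probe sets lay between 5.88 and 6.06, and their lower quartiles between 4.18 and 4.25. Of the 55 members, 28 lay below the sample's median in all 12 samples and 12 above it in all 12. Ccr1, Ccr4, Ccr6, Ccr9, Ccr10 and Ccl1 lay below the lower quartile in all samples, where a dim probe set can show little change. Levels of different genes are not set against each other, since probe sets differ in brightness. Col4a5 itself read 5.06, 5.83 and 5.40 in wild type and 4.09 to 4.97 in the 9 Alport samples. It fell by 0.92 ± 0.23 (SE) in Alport vehicle against wild type (limma adjusted p = 0.0116).

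A few promoters are shown because they set 2 chemokines that rose in Alport kidneys and hold the NF-kappaB consensus, Cxcl10 and Ccl9, beside 3 CXC ligands that hold it and were not called. The windows hold bases upstream of the RefSeq start site in GRCm38.p6, and 40 of the 55 members had an entry in the RefSeq table used. They were searched on both strands, over 250 bases, for the NF-kappaB consensus, for the core of the interferon-stimulated response element (GAAANNGAAA) and for the TATA box (TATAAA). Each is printed 5′ to 3′ on the gene's strand and ends at the base before the start site, with capitals for matches to the NF-kappaB consensus and, in Cxcl10 only, also to the interferon core.
Cxcl10, chr5:92348890-92349109, minus strand: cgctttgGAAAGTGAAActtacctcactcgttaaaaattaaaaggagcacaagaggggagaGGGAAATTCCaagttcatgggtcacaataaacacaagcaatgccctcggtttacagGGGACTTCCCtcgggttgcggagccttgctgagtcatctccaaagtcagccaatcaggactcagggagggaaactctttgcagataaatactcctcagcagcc
Ccl9, chr11:83578637-83578736, minus strand: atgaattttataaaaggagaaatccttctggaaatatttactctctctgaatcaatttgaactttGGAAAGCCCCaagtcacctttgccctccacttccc
Cxcl1, chr5:90891145-90891244, plus strand: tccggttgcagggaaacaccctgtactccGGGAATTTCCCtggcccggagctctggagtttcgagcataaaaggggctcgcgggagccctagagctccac
Cxcl2, chr5:90903789-90903898, plus strand: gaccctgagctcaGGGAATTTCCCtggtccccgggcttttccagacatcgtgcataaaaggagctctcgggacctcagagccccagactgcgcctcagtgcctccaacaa
Cxcl3, chr5:90786001-90786100, plus strand: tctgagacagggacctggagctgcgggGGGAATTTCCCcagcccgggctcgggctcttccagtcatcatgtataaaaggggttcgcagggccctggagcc

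Cxcl10 had the interferon core 213 to 204 bases upstream and the NF-kappaB consensus at 159 to 150 and at 103 to 94. Ccl9 had an NF-kappaB match at 35 to 26 on the other strand. Cxcl1, Cxcl2 and Cxcl3, which were not called in any comparison, had matches that overlapped on both strands, at 71 to 61, 97 to 87 and 73 to 63. The NF-kappaB consensus was present in 3.9% of all 32851 RefSeq windows of this length and in 8 of the 40 member genes, namely in 2 of the 16 that rose in Alport kidneys and in 6 of the 24 others (Ccl20, Ccr3, Ccr6, Cxcl1, Cxcl2 and Cxcl3). The interferon core was in 2.98% of all windows and in 3 members, Cxcl10 and Cxcl14 among those that rose and Ccl19 among the others. The TATA box was in 12.4% of all windows, in 7 of the 16 that rose and in 4 of the 24 others. Ccl2, Ccl5, Ccl7, Ccl21c and Cxcl16 also rose but had no entry, so they are not in these counts. The percentages are shares of windows, whereas a member gene was counted if any of its windows held a match. The 40 genes had 44 windows. Matches of different motifs did not overlap. A match is a run of letters and not a measured binding site.

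Alport vehicle kidneys were first compared with wild type vehicle kidneys, which asks how the chemokine system stands in the diseased kidney without a drug. Of the 55 members 21 rose and 0 fell at a limma adjusted p under 0.05, and these alone are said to have risen or fallen. Of all probe sets, 8.43% rose and 7.71% fell. At an unadjusted p under 0.05, 26 members were higher and 1, Ccl25, was lower (-0.45 ± 0.21, adjusted p = 0.166). The share of all probe sets at an unadjusted p alone was taken only for metformin against losartan. In the other comparisons such counts have no share to be read against. Ligands made up 18 of the 21, of 38 measured, and receptors 3 of 17. The median log2 difference was 0.39 over the members and -0.03 over all probe sets. Centring each sample on its median moved the latter to -0.17, and with it 20 members rose. In the bulk tissue fewer cells of a type and less RNA per cell cannot be told apart.

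**Figure D1:**
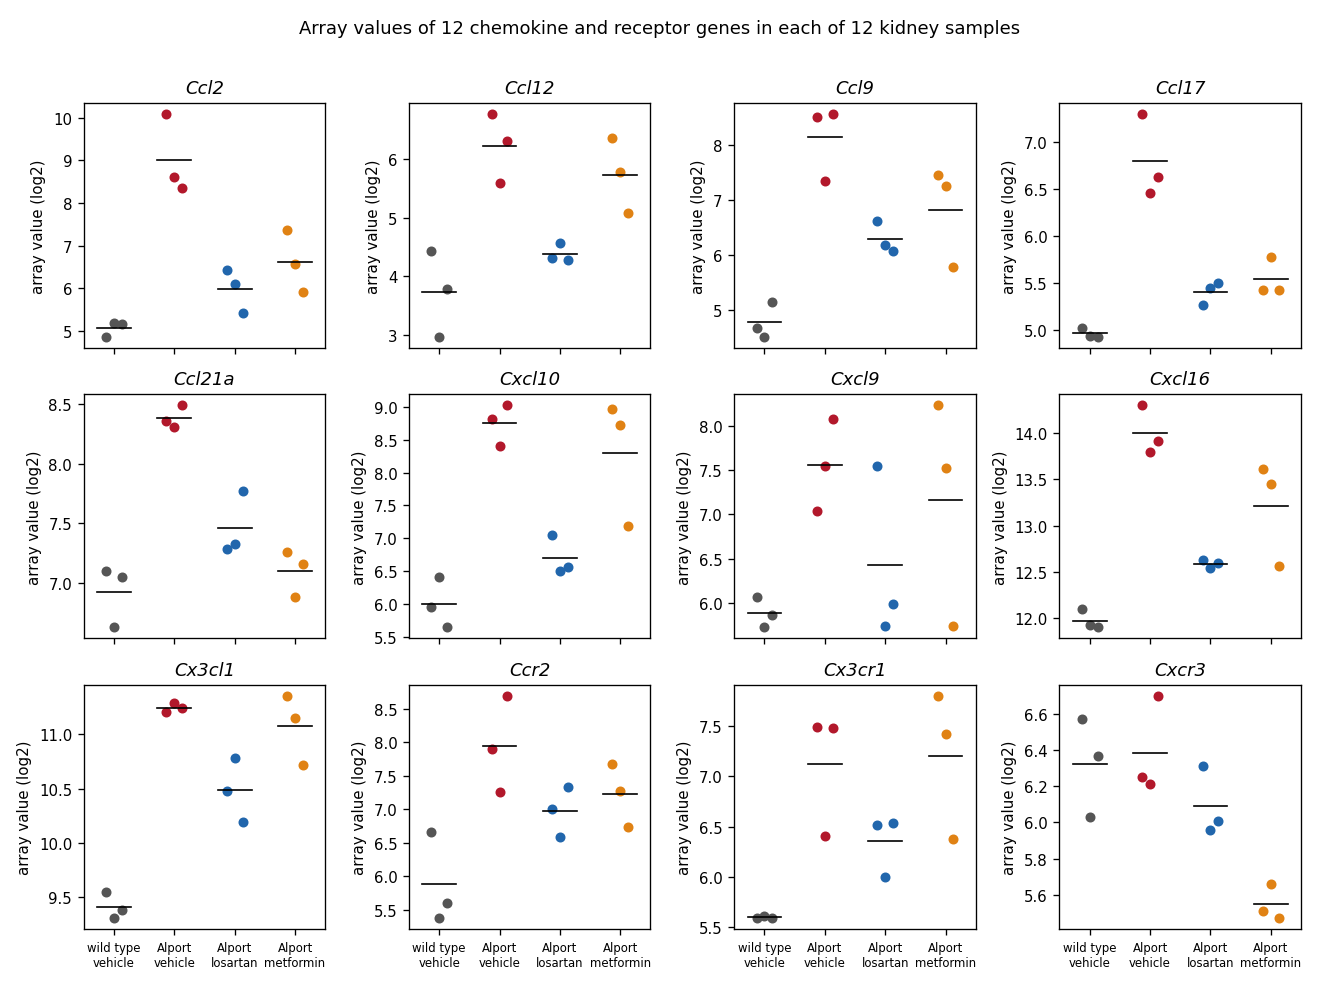
Log2 signal of 12 members in each of the 12 samples, with 1 dot per sample, the 4 groups along the horizontal axis and a line at each group's mean (n = 3). The Alport vehicle dots lie above the wild type dots for 11 of the 12, and overlap with them for Cxcr3.

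Among the CC ligands 12 of 23 rose, led by the monocyte attractants. Ccl2, which recruits monocytes through Ccr2, read 4.87, 5.19 and 5.16 in wild type, 10.08, 8.62 and 8.36 in Alport vehicle. Losartan samples read 6.42, 6.11 and 5.42, and metformin samples 7.37, 6.57 and 5.91. All 3 Alport vehicle samples lay above every other sample, and Alport vehicle sample 1 stood highest. The rise was 3.95 ± 0.40 on the log2 scale, or 15.4-fold (adjusted p = 8.12e-06). Ccl9, a myeloid-derived attractant of monocytes and other myeloid cells that acts through Ccr1, read 4.67, 4.51 and 5.14 in wild type and 8.51, 7.34 and 8.55 in Alport vehicle. It rose by 3.36 ± 0.38, or 10.3-fold (adjusted p = 1.99e-05). Ccl12, a mouse ligand of Ccr2, read 4.44, 2.98 and 3.78 in wild type and 6.75, 5.58 and 6.30 in Alport vehicle. The groups did not overlap, and the rise was 2.48 ± 0.36 (adjusted p = 0.000171).

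Among CC ligands that act on T cells or dendritic cells, the Ccl21 genes, Ccl17, Ccl22 and Ccl5 rose, while Ccl19 and Ccl20 were not called. Ccl21b and Ccl21c, which guide Ccr7-bearing cells into lymphatics and lymph nodes, read 7.58, 6.90 and 6.99 in wild type and 9.0, 9.0 and 9.79 in Alport vehicle, a rise of 2.11 ± 0.23 (adjusted p = 1.67e-05). Their close relative Ccl21a rose by 1.46 ± 0.19, from 6.93 ± 0.26 to 8.39 ± 0.09 (SD, n = 3). The Ccl21 genes are so alike that their probe sets can share signal, and the separate values are uncertain. A further probe set named Ccl21b read 6.41, 5.80 and 5.68 in wild type and 7.73, 7.80 and 8.19 in Alport vehicle, so it too was higher in every Alport vehicle sample. Ccl17, a ligand of Ccr4, rose by 1.83 ± 0.20 (adjusted p = 1.67e-05), with wild type at 4.93 to 5.02 and Alport vehicle at 7.29, 6.46 and 6.62. Ccl22, the other Ccr4 ligand, rose by 0.96 ± 0.19 (adjusted p = 0.00178). Ccl5, made by T cells among others, read 4.16, 4.0 and 4.07 in wild type and 5.86, 5.57 and 6.36 in Alport vehicle, a rise of 1.85 ± 0.34 (adjusted p = 0.0012).

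The remaining CC ligands that rose were Ccl6, Ccl7 and Ccl8. Ccl6 rose by 1.06 ± 0.22, Ccl7 by 0.83 ± 0.17 and Ccl8 by 1.18 ± 0.32. Ccl6 is a relative of Ccl9, and Ccl7 and Ccl8 are further monocyte attractants beside Ccl2. The call of Ccl8 was lost without wild type sample 2 or 3 or without Alport vehicle sample 1 or 3, with adjusted p between 0.0525 and 0.107. The inflammatory ligands Ccl3 and Ccl4 were not called, at 0.27 ± 0.27 and 0.22 ± 0.29. Neither were Ccl19, the other ligand of Ccr7, at 0.49 ± 0.25, Ccl20, the ligand of Ccr6, at 0.32 ± 0.24, or Ccl28, a mucosal epithelial ligand of Ccr10, at -0.01 ± 0.25. Without Alport vehicle sample 1 Ccl19 was called, at 0.81 (adjusted p = 0.0302). The other CC ligands that were not called, Ccl1, Ccl11, Ccl24, Ccl25, Ccl26 and Ccl27a, differed by -0.45 to 0.33.

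Of the 13 CXC ligands 5 rose. Cxcl10, an interferon-induced attractant of T cells, read 5.95, 6.41 and 5.64 in wild type and 8.82, 8.41 and 9.03 in Alport vehicle. The lowest Alport vehicle sample lay well above the highest wild type sample, and the rise was 2.75 ± 0.35, or 6.74-fold (adjusted p = 6.29e-05). Cxcl16, a membrane-bound ligand of Cxcr6 that is released by cleavage, read 12.10, 11.92 and 11.90 in wild type and 14.30, 13.79 and 13.91 in Alport vehicle, a rise of 2.03 ± 0.23 (adjusted p = 2.21e-05). Cxcl13, which draws B cells through Cxcr5, rose by 1.42 ± 0.23 from 5.19 ± 0.34 to 6.61 ± 0.26 (SD, n = 3). Cxcl14, a ligand expressed in epithelia, rose by 1.21 ± 0.19, with 8.04, 8.21 and 8.11 in wild type and 9.33, 8.98 and 9.67 in Alport vehicle.

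Cxcl9, the interferon-induced neighbour of Cxcl10, was less even. It read 6.07, 5.73 and 5.87 in wild type, 7.04, 7.55 and 8.07 in Alport vehicle. In the treated groups it read 7.55, 5.75 and 5.99 (losartan) and 8.23, 7.52 and 5.75 (metformin). Losartan sample 1 and metformin samples 1 and 2 stood with the Alport vehicle samples, and the others with wild type. The rise in Alport vehicle was 1.66 ± 0.51 (adjusted p = 0.0342). It lost its call on leaving out any 1 of the wild type samples, or Alport vehicle sample 2 or 3 (adjusted p 0.0659 to 0.13), and under a trended, robust variance prior (0.106). Cxcl12, the constitutive stromal ligand of Cxcr4, missed the threshold at 0.85 ± 0.28 (adjusted p = 0.0521). Its values were 12.44, 12.89 and 12.47 in wild type and 12.98, 13.17 and 14.19 in Alport vehicle, so sample 3 stood apart. It was called without Alport vehicle sample 1 or 2 or losartan sample 2 or 3 (adjusted p 0.0278 to 0.046), after a new quantile normalization (1.01, 0.0218), without the dimmest 33.3% of probe sets (0.0419) and under the trended, robust prior (0.0441).

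The neutrophil attractants were not called. Cxcl2, Cxcl5 and Cxcl1 lay below the lower quartile in 11, 10 and 5 of the 12 samples, where a dim probe set can show little change. Cxcl1 differed by 0.57 ± 0.27 (95% interval -0.01 to 1.15), Cxcl2 by 0.30 ± 0.22 (-0.15 to 0.76), Cxcl3 by 0.23 ± 0.18 (-0.15 to 0.62) and Cxcl5 by 0.71 ± 0.24 (0.20 to 1.23, adjusted p = 0.0577). Cxcl5 read 3.28, 3.40 and 3.36 in wild type and 4.59, 3.35 and 4.24 in Alport vehicle, where sample 2 lay among the wild type samples. Without that sample it was called at 1.07 (adjusted p = 0.00112). Their receptor Cxcr2 differed by -0.21 ± 0.19. The CXC ligands Cxcl11, Cxcl15 and Cxcl17, also not called, differed by 0.01 to 0.44. The summed linear signal of 8 neutrophil markers was 135 to 171 in wild type and 161 to 172 in Alport vehicle. Of these markers 1 rose (Retnlg, 0.60 ± 0.19), where 8.43% of all probe sets rose. S100a8 and Camp lay below the lower quartile in every sample.

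Cx3cl1, the membrane-anchored ligand of endothelium and epithelium known as fractalkine, differed little within each of these groups. It read 9.55, 9.31 and 9.38 in wild type and 11.20, 11.29 and 11.24 in Alport vehicle, a rise of 1.83 ± 0.19 (adjusted p = 1.14e-05). Xcl1, a T and NK cell ligand, was not called at -0.08 ± 0.19.

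Of the 17 receptors Ccr2, Cx3cr1 and Xcr1 rose. Ccr2, the monocyte receptor of Ccl2, read 6.67, 5.38 and 5.60 in wild type and 7.90, 7.26 and 8.69 in Alport vehicle, a rise of 2.07 ± 0.36 (adjusted p = 0.000849). Cx3cr1, the fractalkine receptor of monocytes and resident macrophages, read 5.59, 5.61 and 5.59 in wild type and 7.49, 6.41 and 7.48 in Alport vehicle, a rise of 1.53 ± 0.32 (adjusted p = 0.00345). Alport vehicle sample 2 was the lowest of its group for both receptors. Xcr1, a receptor of cross-presenting dendritic cells, rose by 0.97 ± 0.31 (adjusted p = 0.0402). That call was lost on leaving out any 1 of the wild type samples, Alport vehicle sample 1 or 3, or metformin sample 2 (adjusted p 0.0501 to 0.198), and with median centring (0.0586), quantile normalization (0.0537) or array weights (0.0512).

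The receptors of several ligands that rose were not called. Cxcr3, on activated T cells, read 6.57, 6.03 and 6.37 in wild type and 6.25, 6.21 and 6.70 in Alport vehicle, a difference of 0.06 ± 0.19 (95% interval -0.34 to 0.46). Cxcr6 differed by 0.30 ± 0.25, Ccr7 by -0.09 ± 0.20 and Cxcr5 by -0.05 ± 0.21. Cxcr4, the receptor of Cxcl12, which was not called itself, differed by 0.30 ± 0.24. Of the dim receptors Ccr1 differed by 0.46 ± 0.20 (adjusted p = 0.142), Ccr6 by 0.16 ± 0.18 and Ccr10 by -0.16 ± 0.18. Ccr3, Ccr4, Ccr8, Ccr9 and Cxcr1 differed by -0.05 to 0.31.

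**Figure D2:**
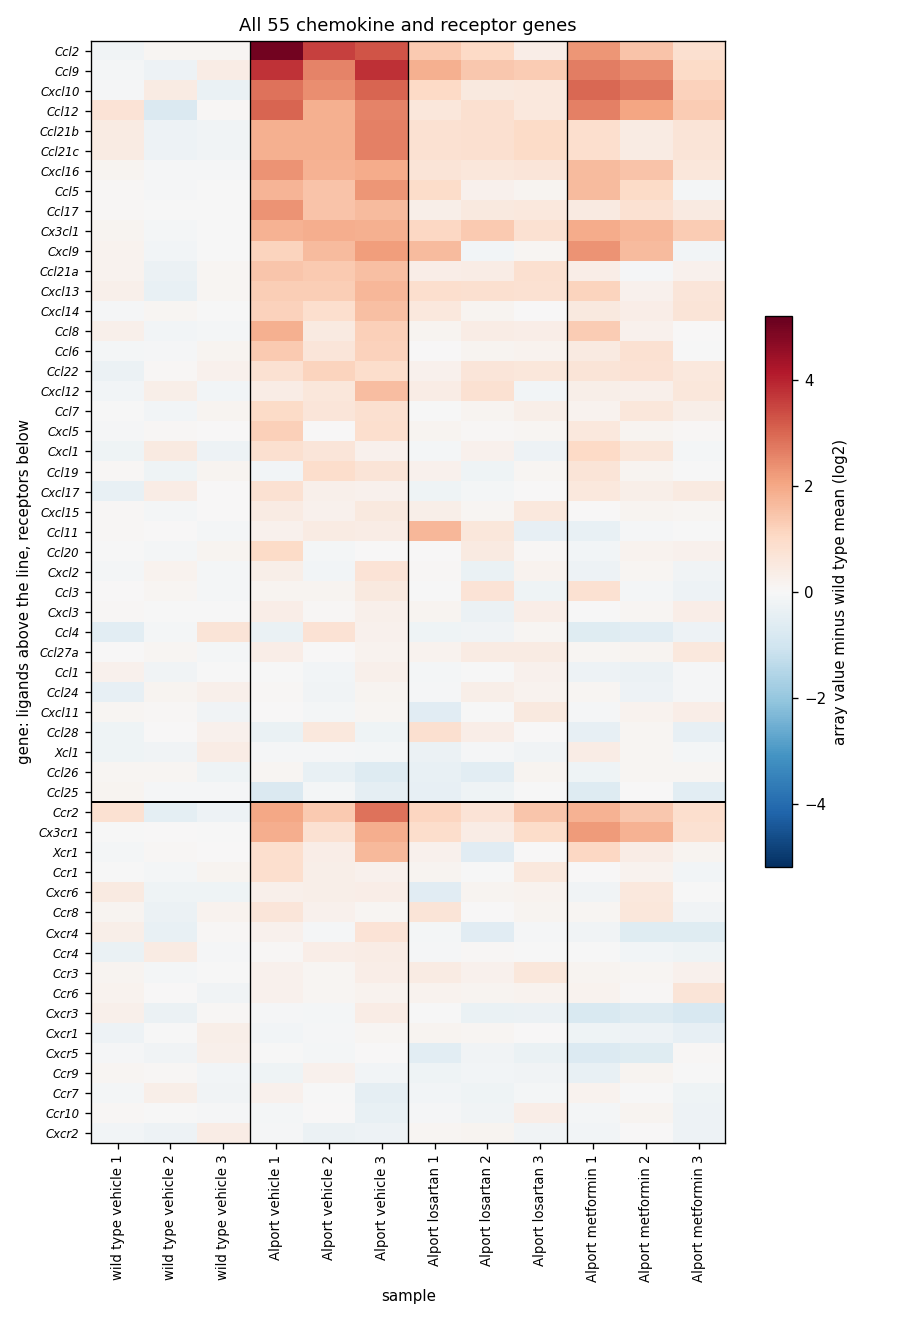
Heat map of all 55 members in the 12 samples, coloured by each value minus the gene's wild type mean (log2), with ligands above the line and receptors below. The strongest positive colours stand in the Alport vehicle columns for Ccl2, Ccl9, Cxcl10 and Ccl12, while most receptor rows stay pale in every group.

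Several ligand genes lie side by side in the genome, and neighbours were not all called. Neighbouring members, at most 10 genes apart in the RefSeq gene order of GRCm38.p6, were counted together. On chromosome 11, Ccl2, Ccl7, Ccl12 and Ccl8 rose and their neighbours Ccl11 and Ccl1 were not called. In the second group there, Ccl5, Ccl9 and Ccl6 rose and Ccl3 and Ccl4 were not called. On chromosome 8 all 3 neighbours, Ccl22, Cx3cl1 and Ccl17, rose. On chromosome 5 the neighbours Cxcl9 and Cxcl10 rose. Cxcl11, not called at 0.01 ± 0.22, was not placed in this order, which held protein-coding genes only. Of a separate group there, Cxcl5, Cxcl3, Cxcl15, Cxcl1 and Cxcl2, 0 of 5 were called by limma (2, Cxcl5 and Cxcl15, were higher at an unadjusted p under 0.05).

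Markers of macrophages moved with the same comparison, in which 8.43% of all probe sets rose and 7.71% fell. Of 11 measured monocyte and macrophage markers 9 rose, with a median of 2.65 over the list, among them C1qc (2.82 ± 0.32) and Adgre1 (1.59 ± 0.30). The 2 not called were Csf1r, with means of 10.42 in wild type and 10.93 in Alport vehicle, and the monocyte marker Ly6c2, with 8.26 and 8.07. The summed signals that follow are of all 11 markers. Their summed linear signal was 2340, 2210 and 2220 in wild type, 15300, 7530 and 25900 in Alport vehicle. Losartan samples had 4460, 3570 and 3760, and metformin samples 10700, 8670 and 4370. Lyz2 was the brightest marker in each Alport vehicle sample, at 13.09, 11.93 and 14.06, and weighed most in those sums. In wild type it read 7.0, 7.11 and 6.05. The sum without Lyz2 was not taken. No marker of this list lay below the lower quartile in all samples. Alport vehicle sample 2 had the lowest sum of its group, and it was also the lowest of the 3 for 14 of the 21 members that rose. T and NK cell markers rose in 2 of 10 (Cd3e and Cd4), with a sum of 252 to 304 in wild type and 354 to 556 in Alport vehicle. For B and plasma cells 1 of 7 rose (Jchain), but Xbp1, which is not limited to these cells and was not called (0.48 ± 0.21, adjusted p = 0.139), made up 98.3% to 99.6% of the list's sum of 16000 to 22700 in wild type and 20800 to 35100 in Alport vehicle. Without Xbp1 the sum was 119 to 127 and 266 to 451. Ms4a1, Cd79a and Mzb1 were not called, at -0.23 ± 0.21, -0.10 ± 0.17 and -0.46 ± 0.23. A sum weights the brightest probe set of its list most. Of dendritic cell markers 1 of 7 rose (Cd209a), with 142 to 168 and 184 to 278, and Flt3, Zbtb46 and Clec9a lay below the lower quartile in all samples. Of the 5 markers of lymphatics and lymph node Pdpn and Ccl21a, itself a member here, rose, with sums of 573 to 710 and 1140 to 1680. Pdpn made up 32.7% to 62.5% of that sum. The other 3 were not called. Means in wild type and Alport vehicle were 4.41 and 4.77 for Lyve1, 7.86 and 7.82 for Prox1, and 4.80 and 4.43 for Cr2. Among 6 endothelial markers Emcn rose and Kdr fell. Of 8 proximal tubule markers 7 fell, from a sum of 1230000 to 1250000 down to 717000 to 815000. The part of these cell types in the chemokine values was not tested.

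Losartan was then compared with vehicle in Alport mice. Of the 55 members 15 fell and 0 rose, and 25 were lower and 0 higher at an unadjusted p under 0.05. Of all probe sets 4.11% fell and 3.79% rose by adjusted p, with no share taken at the unadjusted p. The members' median log2 difference was -0.39, against 0.01 over all probe sets. The 15 were 14 ligands and Xcr1, and each had also risen in Alport vehicle against wild type. These comparisons share the Alport vehicle samples, so a high Alport vehicle sample raises the size of both.

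Ccl2 fell by 3.04 ± 0.40, to 8.21-fold lower (adjusted p = 0.00053), and the losartan samples did not overlap with the Alport vehicle samples. Cxcl10 fell by 2.05 ± 0.35 (adjusted p = 0.00274), to 7.05, 6.5 and 6.56. Ccl9 fell by 1.85 ± 0.38 (adjusted p = 0.00749), to 6.61, 6.17 and 6.07. These 3 genes carried the largest rises in Alport vehicle, and with losartan each sample lay below the lowest Alport vehicle sample. Ccl12 fell by 1.83 ± 0.36 (adjusted p = 0.00611), to 4.31, 4.56 and 4.28, where 2 of the 3 lay below the highest wild type sample. Cxcl16 fell by 1.41 ± 0.23 (adjusted p = 0.00194), to 12.63, 12.54 and 12.59. Ccl17 fell by 1.38 ± 0.20 (adjusted p = 0.000925), to 5.27, 5.45 and 5.5.

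Ccl21b and Ccl21c fell by 1.23 ± 0.23, Cxcl14 by 0.97 ± 0.19 and Ccl21a by 0.92 ± 0.19. Less firm were Ccl5 (-1.40 ± 0.34, adjusted p = 0.0184), Xcr1 (-1.09 ± 0.31, 0.0387), Ccl6 (-0.95 ± 0.22, 0.0149), Cx3cl1 (-0.76 ± 0.19, 0.0226) and Ccl7 (-0.68 ± 0.17, 0.0239). Each of these 5 lost its call without Alport vehicle sample 1 and without sample 3, at adjusted p between 0.0519 and 0.163. Losartan sample 2, left out, ended the calls of Ccl5, Ccl6, Ccl7 and Xcr1 (0.0527 to 0.188), and losartan sample 1 those of Ccl7 and Cx3cl1 (0.0834 and 0.0534). Without losartan sample 3 those of Ccl5, Cx3cl1 and Xcr1 were lost (0.0748 to 0.11), and without wild type sample 2 or 3 that of Xcr1 (0.0517 and 0.0519). A fit of the 2 groups alone ended those of Ccl7 (0.0542) and Xcr1 (0.069).

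Of the receptors that had risen, Ccr2 read 7.0, 6.59 and 7.33 with losartan, and the difference of -0.98 ± 0.36 was not called (adjusted p = 0.121). Cx3cr1 read 6.52, 6.00 and 6.54, at -0.77 ± 0.32 (adjusted p = 0.178). Both groups overlapped with Alport vehicle through its sample 2, without which both were called, at -1.32 (adjusted p = 0.0339) for Ccr2 and -1.13 (0.0311) for Cx3cr1. The same sample decided Ccl8 (-0.88 ± 0.32, and -1.24 with adjusted p = 0.0196 without it) and Cxcl5 (-0.95, adjusted p = 0.0063 without it). Cxcl9 (-1.12 ± 0.51), Cxcl13 (-0.57 ± 0.23) and Ccl22 (-0.48 ± 0.19) were not called. Macrophage markers fell in 6 of 11, with a median of -1.38, beside these values.

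**Figure D3:**
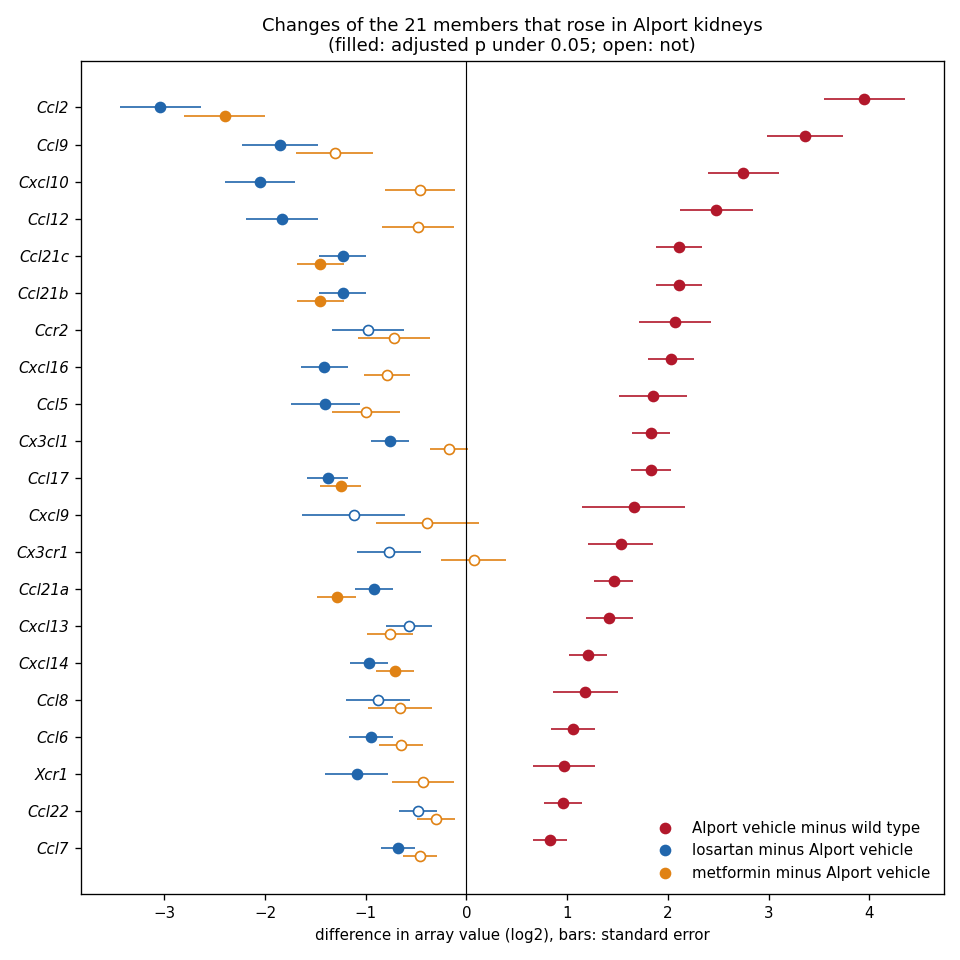
Log2 difference with its standard error for the 21 members that rose in Alport vehicle, in 3 comparisons: Alport vehicle minus wild type, losartan minus Alport vehicle and metformin minus Alport vehicle. Filled symbols passed the test, which they did for 21, 15 and 6 of the 21.

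Metformin was likewise set against Alport vehicle. Of the 55 members 7 fell and 0 rose, and 16 were lower and 0 higher at an unadjusted p under 0.05. Over all probe sets 2.27% fell and 2.67% rose by adjusted p, with no share taken at the unadjusted p. The median log2 difference was -0.37 over the members and -0.01 over all probe sets. Without Alport vehicle sample 2 the count was 11. Ccl2 fell by 2.40 ± 0.40, to 5.29-fold lower (adjusted p = 0.00426), and its metformin samples lay between the wild type and the Alport vehicle samples. Ccl21b and Ccl21c fell by 1.45 ± 0.23 (adjusted p = 0.00345), to 8.03, 7.57 and 7.85. Ccl21a fell by 1.29 ± 0.19 (adjusted p = 0.00206), to 7.26, 6.88 and 7.16, so 2 of its 3 metformin samples lay above the wild type range. Ccl17 fell by 1.25 ± 0.20 (adjusted p = 0.00345), to 5.42, 5.77 and 5.42.

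Cxcl14 fell by 0.71 ± 0.19 (adjusted p = 0.0463). This call was the least firm: it was lost on leaving out any 1 of the wild type or metformin samples, Alport vehicle sample 1 or 3, or losartan sample 2 or 3 (adjusted p 0.0536 to 0.157). It was lost too with median centring (0.0608), array weights (0.0576), the 2 groups alone (0.109) or the replicate number as a block (0.0604). Cxcr3, the receptor of Cxcl9 and Cxcl10, fell by 0.84 ± 0.19 (adjusted p = 0.0184), to 5.51, 5.66 and 5.47. All 3 lay below every sample of the other groups, which read 5.96 to 6.70. The call was lost without Alport vehicle sample 3 (0.0706) or metformin sample 3 (0.0813), and with the 2 groups alone (0.0512). Cxcr4 was not called at -0.78 ± 0.24 (adjusted p = 0.072), but was with the replicate block (0.0401) or without Alport vehicle sample 2 (0.0357).

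Cxcl10, Ccl12, Cx3cl1 and Cx3cr1, which had risen in Alport vehicle, were not called with metformin. Cxcl10 read 8.97, 8.73 and 7.19, a difference of -0.46 ± 0.35, and Ccl12 read 6.35, 5.77 and 5.07, a difference of -0.48 ± 0.36. Cx3cl1 read 11.35, 11.15 and 10.72 (-0.17 ± 0.19) and Cx3cr1 read 7.80, 7.42 and 6.38 (0.07 ± 0.32). Metformin samples 1 and 2 lay within or above the Alport vehicle range for these genes, except sample 2 for Cx3cl1, which lay just below it, and sample 3 was the lowest of its group in each. Over the 21 members that rose, metformin sample 3 was the lowest of the 3 for 14 and sample 1 the highest for 16. The summed signal of the macrophage markers had the same order of samples, at 10700, 8670 and 4370. Its brightest marker, Lyz2, read 12.56, 12.25 and 10.67 in them. Of the 11 markers 1 fell (Mrc1). Their part in this order was not tested. Ccl9 (-1.31 ± 0.38, adjusted p = 0.0575), Cxcl16 (-0.79 ± 0.23, 0.06), Ccl5 (-1.0 ± 0.34, 0.109) and Cxcl13 (-0.76 ± 0.23, 0.0739) were near the threshold. All 4 were called without metformin sample 1, at -1.62 (0.0318), -0.99 (0.0307), -1.40 (0.0212) and -1.01 (0.0211). Without the dimmest 33.3% of probe sets Ccl9 (0.0468) and Cxcl16 (0.0487) were called, and Cxcl16 also with quantile normalization (0.0304) or the trended, robust prior (0.0297). Without Alport vehicle sample 2 Ccl9 (-1.71, 0.0139), Ccl6 (-0.86, 0.0307) and Cxcl5 (-0.81, 0.021) were called.

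The 2 drugs were compared directly, since a call with 1 drug and not the other does not show that they differ. Of the 55 members 0 passed limma's test, against 0.045% of all probe sets. At an unadjusted p under 0.05, 7 were higher and 4 lower with metformin, as were 8.37% of all probe sets in either direction. The median log2 difference was 0.11 over the members, with 30 above 0 and 25 below, and -0.01 over all probe sets. The trended, robust prior, array weights and both normalizations also gave 0. The largest difference was that of Cxcl10, at 1.59 ± 0.35 higher with metformin (95% interval 0.84 to 2.34, unadjusted p = 0.00036, adjusted p = 0.15), higher in 3 of 3 metformin samples than any losartan sample. Ccl12 was 1.35 ± 0.36 higher (0.59 to 2.11, adjusted p = 0.293), Cx3cr1 0.85 ± 0.32 (0.16 to 1.53, 0.487), Cxcl16 0.62 ± 0.23 (0.13 to 1.11, 0.476) and Cx3cl1 0.59 ± 0.19 (0.18 to 1.0, 0.406). Cxcr3 was lower with metformin, at -0.55 ± 0.19 (-0.95 to -0.15, adjusted p = 0.438). Without metformin sample 3, Cxcl10 (2.15, adjusted p = 0.00167) and Cxcl16 (0.94, 0.0433) were called. For Ccl2 the interval ran from -0.21 to 1.48 around 0.63, and it leaves room for no difference and for a 2-fold one.

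**Figure D4:**
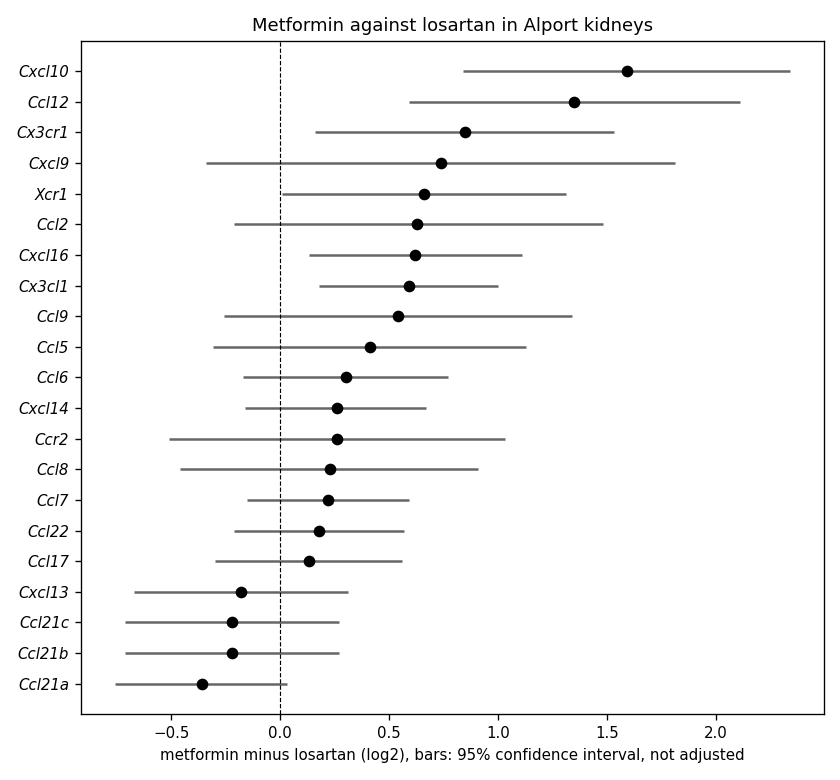
Metformin minus losartan (log2) for the 21 members that rose in Alport vehicle, with 95% intervals that are not adjusted for the number of genes. Points to the right are higher with metformin, which 17 of the 21 were, against 30 of all 55 members, and 0 passed the adjusted test.

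The treated groups were last set against wild type. With losartan 1 member, Cx3cl1, stood above wild type (1.07 ± 0.19, adjusted p = 0.0193), where 0.401% of all probe sets rose by adjusted p. At an unadjusted p under 0.05, for which no share was taken, 13 members were higher and 0 lower. The call of Cx3cl1 was lost without wild type sample 2 or 3 or losartan sample 1 or 2 (adjusted p 0.0777 to 0.112). Ccl9, at 1.51 ± 0.38 (adjusted p = 0.105), was called without metformin sample 3 (0.0173) and in a fit of those 2 groups alone (0.00401). With metformin 8 members stood above wild type and Cxcr3 below it (-0.78 ± 0.19, adjusted p = 0.0292), where 2.7% of all probe sets rose and 1.48% fell. The 8 were Cxcl10 (2.3 ± 0.35), Ccl9 (2.05 ± 0.38), Ccl12 (2.0 ± 0.36), Cx3cl1 (1.66 ± 0.19), Cx3cr1 (1.60 ± 0.32), Ccl2 (1.54 ± 0.40), Ccr2 (1.35 ± 0.36) and Cxcl16 (1.23 ± 0.23). Without metformin sample 1 or 2 the count of 9 fell to 5, with Ccl2 (0.194 and 0.102), Ccr2 (0.202 and 0.126), Cx3cr1 (0.0635 and 0.0543) and Cxcr3 (0.107 and 0.0635) lost. Ccl5 (1.33, adjusted p = 0.0117) and Cxcl9 (1.99, 0.0116) were called without metformin sample 3. Ccl2, Ccr2 and Cxcr3 also lost their calls without other samples, wild type sample 3 among them (0.106, 0.17 and 0.104). Over the 21 members that rose in Alport vehicle, which were chosen for being high with vehicle, the median height above wild type was 1.83 with vehicle, 0.61 with losartan and 0.66 with metformin. Over all 55 members it was 0.39, 0.16 and 0.17. For the macrophage markers 2 of 11 stood above wild type with losartan and 9 of 11 with metformin. At an unadjusted p under 0.05 (limma) 8 and 9 were higher, with medians of 1.19 and 2.08. Between the drugs 0 of 11 were called, and 4 were higher with metformin at an unadjusted p under 0.05.

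By an unadjusted p under 0.05 with a change of at least 2-fold, in place of the adjusted p, the member counts were 18 for Alport vehicle against wild type (7.06% of all probe sets), 11 for losartan against vehicle (3.6%) and 6 for metformin against vehicle (2.31%). They were 2 for metformin against losartan (0.459%; Cxcl10 and Ccl12), 3 for losartan against wild type (1.08%) and 9 for metformin against wild type (2.45%).

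Genes around the chemokine system were read from lists of their own. Of all probe sets 8.43% rose and 7.71% fell in Alport vehicle against wild type. Against Alport vehicle 3.79% rose and 4.11% fell with losartan, and 2.67% rose and 2.27% fell with metformin. Of 8 atypical receptors and other relatives (among them the scavenging receptors Ackr1 to Ackr4) 0 were called in Alport vehicle against wild type (limma; 1 was higher at an unadjusted p under 0.05), with a median of 0.08. With losartan Cklf fell by 0.78 ± 0.21 and the platelet chemokine Ppbp rose by 0.70 ± 0.18. Ppbp was dim, at 3.71, 3.5 and 3.72 in Alport vehicle and 4.17, 4.68 and 4.18 with losartan. Of these samples only losartan sample 2 lay above its lower quartile. Of 7 proteases that release or trim chemokines, Mmp14 rose by 3.65 ± 0.30 and Mmp2 by 3.43 ± 0.39. Both fell with losartan (-2.42 ± 0.30 and -2.25 ± 0.39) and with metformin (-1.74 ± 0.30 and -1.75 ± 0.39). The sheddases of Cx3cl1 and Cxcl16, Adam10 and Adam17, were not called. In Alport vehicle against wild type they were 0.48 ± 0.20 and 0.41 ± 0.17 higher (limma unadjusted p = 0.0283 and 0.0275, adjusted p = 0.123 and 0.121).

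Of 24 measured genes that act below the receptors 12 rose and 1 fell in Alport vehicle, with a median of 0.64. Of all probe sets 8.43% rose and 7.71% fell there. Stat3, a transcription factor activated by cytokine signalling, rose by 1.99 ± 0.27, Dock2, which drives leukocyte migration through Rac, by 1.91 ± 0.28 and the receptor kinase Grk5 by 1.51 ± 0.23. Ptk2b, a calcium-activated tyrosine kinase, fell by 1.07 ± 0.21. With losartan Stat3, Dock2, Rac2 and Pik3cg fell, by 0.78 to 0.99, and with metformin Ptk2b rose by 0.82 ± 0.21. Of 19 measured regulators of the NF-kappaB and interferon pathways 9 rose, with a median of 0.70, such as Nfkb2 (1.87 ± 0.34), the inhibitor Nfkbie (1.26 ± 0.21) and Tnfaip3 (1.95 ± 0.32), and Irf1 (1.61 ± 0.28), an interferon-induced transcription factor. With losartan 5 fell, namely Irf1 (-1.34 ± 0.28), Nfkb2, Tnfaip3, Nfkbiz and Nfkbie. With metformin 0 were called (limma; 5 were lower at an unadjusted p under 0.05).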

How the data were processed

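Whole-kidney RNA was measured on Affymetrix Clariom S arrays, per the labels' protocols. The table that the authors deposited holds a log2 value for each of 22206 probe sets in 12 samples. Its scale was read from the values (2.3 to 19.88). The tool was Transcriptome Analysis Console 4.0, per the submitters' processing notes. How background, normalization and probe summary were handled was not given in the sources used here. Probe sets were named from the platform annotation, with symbols updated through Entrez identifiers to RefSeq GRCm38.p6. For 19572 a single symbol was found, for 0 several, and 2634 stayed unnamed. The update changed 0 member symbols. Precision rests on the 3 arrays per group.

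All 12 samples were fitted with limma 3.58.1 (lmFit, eBayes; R 4.3.3), with a mean per group and 8 residual degrees of freedom. The two-sided p-values were adjusted by Benjamini-Hochberg over all probe sets of each of 6 comparisons. The script was tested on simulated data. The comparisons share groups: vehicle-treated Alport samples enter 3 of them, and so do the wild type samples.

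The members and lists were chosen with earlier results of these data known. Named with values by rule were, per comparison, up to 6 called members with the largest rise and up to 6 with the largest fall, ligand and receptor partners whether called or not, and the 4 ligands and 4 receptors with the highest mean. Other members are given by range and call. For other lists up to 3 genes with the smallest p were to be named. Further list genes and markers in the text were chosen after their values were seen. A linear signal is 2 to the power of the log2 value. Alternatives were median centring, quantile normalization, a filter that drops the 33.3% of probe sets with the lowest mean (22 members), a trended robust prior, array weights, only the groups compared, a replicate block, a 2-fold rule, the dimmer probe set of a gene, and leaving out each sample.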

Additional observations from a re-analysis of the deposited data

How the results depend on the processing

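The count of called members was 21 for Alport vehicle against wild type, 18 to 22 on leaving out each sample and 18 to 22 under the 9 other alternatives. For losartan against vehicle it was 15, with 10 to 19 and 11 to 15. For metformin against vehicle it was 7, with 5 to 11 and 5 to 9. For metformin against losartan it was 0, with 0 to 2 on leaving out a sample and 2 by the 2-fold rule. For losartan against wild type it was 1, with 0 to 2 on leaving out a sample, 2 in a fit of only the groups compared and 3 by the 2-fold rule. For metformin against wild type it was 9, with 5 to 10 and 8 to 10. By adjusted p, 18 of 21, 10 of 15, 5 of 7, 0 of 1 and 5 of 9 calls held under every alternative that uses it. With the 2-fold rule also required, 16 of 21, 8 of 15, 5 of 7, 0 of 1 and 5 of 9 held. No single-gene value that was called changed its sign. Median centring turned the split of all probe sets in Alport vehicle against wild type from 1871 up and 1711 down to 1451 up and 2842 down, while 20 members rose and 0 fell. The causes of these shifts were not tested.

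Same-numbered samples of different groups did not deviate together over all probe sets. The correlation of their deviations from the group means was -0.14 to 0.078 over 18 pairs (median -0.026). Differently numbered samples gave -0.198 to 0.262 over 36 pairs (median 0.021). A pairing that is weak or limited to some genes would not show in this correlation. With the replicate block the counts were 21, 15, 7, 0, 1 and 10 in the order above. Precision is limited by 3 samples per group and, for 28 members, by signals below the sample median.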
